A study of Mus musculus with 12 samples.

Results

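NanoISD is a nanoparticle in which a double-stranded DNA cargo with phosphorothioate-capped ends is complexed with D-PDB, a pH-responsive polymer that forms micelles and disrupts endosomes. The comparison described here set the tumors that received the loaded particle against those that received the polymer alone, gene by gene, to give the part of the early cytokine response that went with the DNA. All 12 tumors of the series were B16.F10 melanomas, i.e. a murine melanoma cell line, grown under the skin of C57BL/6 mice aged 6-8 weeks. All were injected once with 100 µL when they had reached about 200 mm3. The 4 NanoISD-treated tumors received 2 µg of DNA in the D-PDB carrier, the 4 D-PDB-treated tumors received free D-PDB at a dose matched to it, and the 4 PBS-treated tumors received buffer. Every tumor was harvested 6 hours later, and 100 ng of its RNA was measured with a NanoString panel, in which each transcript is hybridized to its own fluorescent barcode and counted without amplification. The panel has 48 rows, of which 43 cytokine and chemokine genes were kept and 5 were left out because they set the scale (*Tbp*, *Rpl19*, *Hdac3*, *Gusb*, and *Gapdh*, the house-keeping genes). No tumor of the series received the DNA without the carrier, so the values describe DNA added to D-PDB and not DNA by itself.

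Double-stranded DNA in the cytosol is bound by the enzyme cGAS, which makes the cyclic dinucleotide cGAMP, and cGAMP in turn activates the adaptor protein STING. STING signals through the kinase TBK1 to the transcription factor IRF3, which drives type I interferons and, with the interferons themselves, the CXCR3 ligands. STING also activates NF-kB, which drives *Il6*, *Tnfa*, colony-stimulating factors, and many chemokines that attract neutrophils and monocytes. In melanomas, CXCR3 ligands are known for attracting T cells and NK cells, whereas ligands of CXCR2 and CCR2 are known for attracting neutrophils and monocytes.

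The promoters of a few genes on which the comparison turned are shown first, because they hold the short sequences that these factors are known to bind. The name of each of the 43 genes was found in the RefSeq table of GRCm38.p6 (42 directly, and *Tnfa* through its symbol *Tnf*), and 32 genes had a promoter sequence. The 250 bases before each start were searched on both strands for GAAANNGAA, a shortened interferon-stimulated response element, and for GGGANNTTC, a shortened NF-kB site. Matches of the same motif on opposite strands may overlap each other. The windows of *Cxcl10* (the gene with the largest difference) and its neighbor *Cxcl9* (which did not pass the test) hold both motifs, those of *Il6*, *Cxcl1*, and *Cxcl2* hold the NF-kB letters, and that of *Ifna1* holds the interferon-response letters. Each is printed 5′ to 3′ on the strand of its gene, with the matched letters in capitals.
Cxcl10, chr5:92348890-92349139, minus strand: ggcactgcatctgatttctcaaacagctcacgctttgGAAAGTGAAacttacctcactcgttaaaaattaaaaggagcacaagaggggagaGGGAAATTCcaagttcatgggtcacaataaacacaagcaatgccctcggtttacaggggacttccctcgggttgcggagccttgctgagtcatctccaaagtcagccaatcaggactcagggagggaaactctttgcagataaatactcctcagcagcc
Cxcl9, chr5:92328080-92328329, minus strand: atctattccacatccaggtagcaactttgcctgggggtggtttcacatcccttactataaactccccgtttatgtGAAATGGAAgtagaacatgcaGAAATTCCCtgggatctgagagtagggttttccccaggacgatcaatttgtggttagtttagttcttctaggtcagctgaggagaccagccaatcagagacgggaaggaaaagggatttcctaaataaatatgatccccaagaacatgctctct
Il6, chr5:30012864-30013113, plus strand: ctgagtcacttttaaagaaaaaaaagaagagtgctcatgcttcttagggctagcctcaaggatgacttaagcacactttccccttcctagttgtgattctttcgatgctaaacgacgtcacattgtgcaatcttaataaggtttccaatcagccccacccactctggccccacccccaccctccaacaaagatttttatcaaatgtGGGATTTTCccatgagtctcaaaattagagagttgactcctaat
Cxcl1, chr5:90890995-90891244, plus strand: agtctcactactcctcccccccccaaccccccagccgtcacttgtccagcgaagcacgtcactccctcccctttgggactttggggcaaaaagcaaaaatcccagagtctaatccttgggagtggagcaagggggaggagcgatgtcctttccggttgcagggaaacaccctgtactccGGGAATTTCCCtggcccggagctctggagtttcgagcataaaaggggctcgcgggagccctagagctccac
Cxcl2, chr5:90903649-90903898, plus strand: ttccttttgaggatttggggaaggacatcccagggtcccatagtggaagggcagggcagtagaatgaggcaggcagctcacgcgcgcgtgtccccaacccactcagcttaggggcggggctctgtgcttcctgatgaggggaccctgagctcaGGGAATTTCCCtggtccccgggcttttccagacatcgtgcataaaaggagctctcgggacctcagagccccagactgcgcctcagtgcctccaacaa
Ifna1, chr4:88849837-88850086, plus strand: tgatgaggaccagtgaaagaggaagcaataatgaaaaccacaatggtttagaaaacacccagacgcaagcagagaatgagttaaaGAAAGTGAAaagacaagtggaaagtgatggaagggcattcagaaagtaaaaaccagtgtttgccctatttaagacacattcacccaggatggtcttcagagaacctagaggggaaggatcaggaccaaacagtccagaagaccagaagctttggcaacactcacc

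In *Cxcl10*, the first base of the interferon-response letters lies 213 bases before the start and that of the NF-kB letters 159 bases before it, and in *Cxcl9* they lie at 175 and 154 bases. Within each of these windows the matches of the different motifs do not overlap. The NF-kB letters begin 44 bases before the start of *Il6*. In *Cxcl1* they match on both strands, at 71 and 69 bases, so that the overlapping matches form a single run of capitals, and *Cxcl2* has the same arrangement at 97 and 95 bases. The related CXCR2 ligand *Cxcl3* has it at 73 and 71 bases. The interferon-response letters of *Ifna1* begin 165 bases before its start. Of the 32 panel genes with a promoter, 7 (21.9%) held the interferon-response letters and 10 (31.2%) the NF-kB letters, beside 7.13% and 3.23% of all 32851 promoters in the table. Among the 7 of these genes that were higher with the DNA cargo in the test described next, *Cxcl10*, *Ccl3*, and *Ifna1* held the interferon-response letters, and *Cxcl10*, *Il6*, *Cxcl1*, and *Csf1* held the NF-kB letters, whereas *Tnfa* held neither. Of the 25 genes that were not, 4 held the interferon-response letters and 6 the NF-kB letters. A match describes these letters in this window and is not a measured binding site.

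The values are log2 fold changes, scaled by the house-keeping genes and set against the PBS mean, so that 0 is the PBS mean and a difference of 1 is a 2-fold difference. Each gene was tested by limma in 1 fit of the 3 treatments, and p-values were adjusted over the 43 genes by the Benjamini-Hochberg method and read at 0.05. Of the 43 genes, 11 were higher in NanoISD-treated than in D-PDB-treated tumors (25.6% of the genes tested) and 0 were lower, also at an unadjusted p under 0.05 and by the exact permutation test. The 11 genes were the CXCR3 ligands *Cxcl10* and *Cxcl11*, the interferon *Ifna1*, the cytokines *Il6*, *Il10*, and *Tnfa*, the chemokines *Ccl3*, *Ccl4*, and *Cxcl1*, and the colony-stimulating factors *Csf1* and *Csf3*. Their differences ran from 1.01 to 3.46 log2 units. Over the whole panel, the mean was higher with NanoISD for 42 genes and lower for 1 (*Tgfb1*, -0.01), with a median difference of 1.01 log2 units. The SE of a difference ran from 0.31 to 0.98 log2 units with 4 tumors in each group. For 8 genes (18.6% of the panel), all of them among the 11, the lowest NanoISD value exceeded the highest D-PDB value, and the reverse occurred for 0 genes. For such a gene the two-sided exact permutation test gives p = 0.0286, the smallest that 4 against 4 tumors allow.

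**Figure D1:**
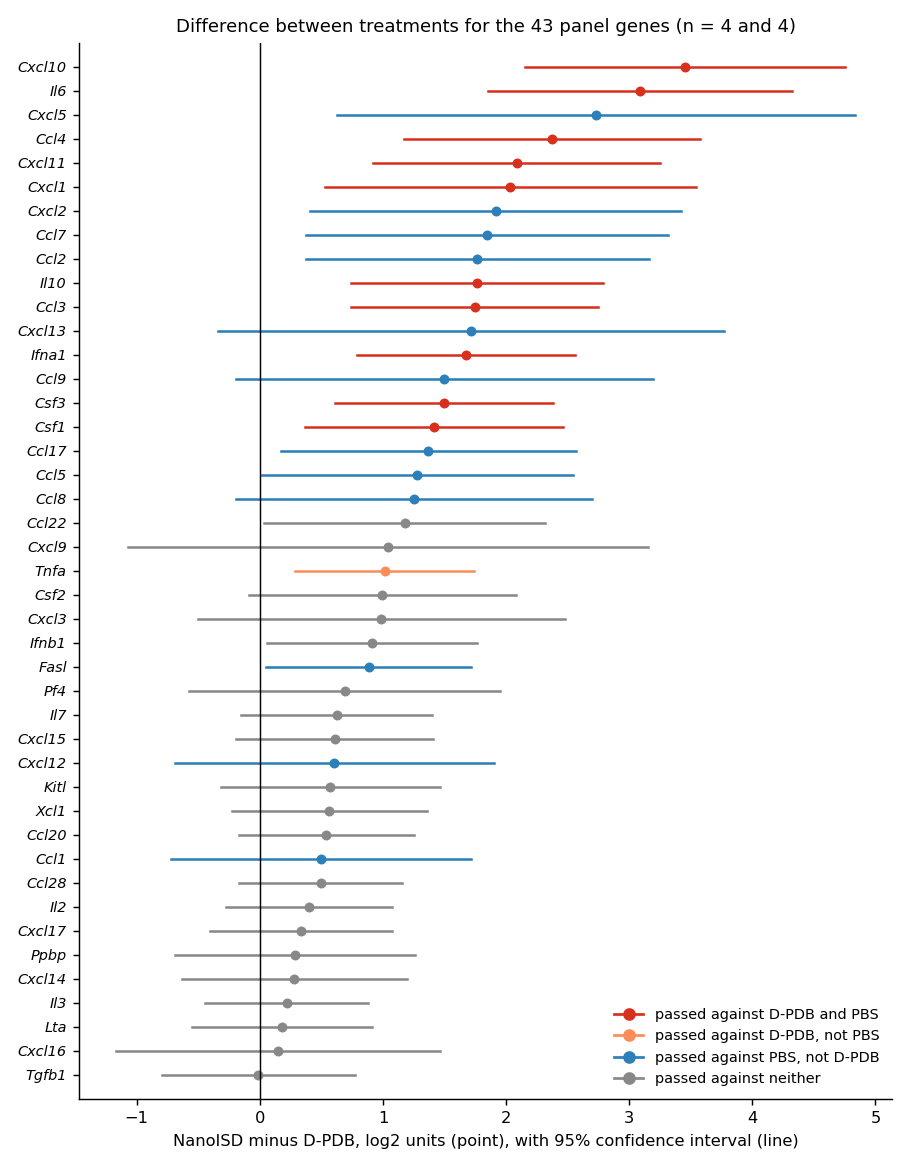
Difference between NanoISD- and D-PDB-treated tumors (NanoISD minus D-PDB, log2 units, horizontal axis) for each of the 43 panel genes (vertical axis, ordered by the difference), with the unadjusted 95% confidence interval as a line. The 42 higher means lie to the right of 0, from *Cxcl10* at 3.46 at the top, and *Tgfb1* lies at -0.01 at the bottom; colors give whether a gene passed the limma test against D-PDB, PBS, both, or neither.

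The count of 11 rested on the spread estimated over all 3 treatments, as did the SEs, intervals, and limma p-values printed with it. The PBS-treated tumors enter this spread although they are not compared here. Their SD was the smallest of the 3 groups for most panel genes. This held for most of the 11 too, such as *Il10* (0.16, beside 0.95 with NanoISD and 0.70 with D-PDB). It was the largest only for a few genes, none of them among the 11, such as *Cxcl2* (1.26, beside 0.95 and 1.09). With only the 2 compared treatments in the fit, 2 genes (*Cxcl10* and *Il6*) passed. Leaving out single tumors gave 5 to 20 genes. Among the D-PDB-treated tumors, omission of tumor 1 or of tumor 3 left 5 genes, of tumor 2 left 7, and of tumor 4 gave 17, while omission of NanoISD tumor 2 gave 20. Genes without overlap numbered 19 when D-PDB tumor 4 was omitted and 17 when NanoISD tumor 2 was. No direction among the 11 genes changed in any of these fits.

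Type I interferons are the first products of the IRF3 arm and act on nearly all cells through a common receptor. *Ifna1*, one of the interferon-alpha genes, measured 1.42, 0.88, 2.51, and 0.86 log2 units in NanoISD tumors 1 to 4, in that order, and -0.91, -0.08, 0.35, and -0.38 in D-PDB tumors 1 to 4. Every NanoISD-treated tumor was above every D-PDB-treated tumor, and 3 of the 4 D-PDB-treated tumors were below the PBS mean. The mean was higher with NanoISD by 1.67 log2 units, i.e. 3.19-fold (SE 0.41, limma adjusted p = 0.014). *Ifnb1*, the interferon-beta gene that IRF3 induces most directly, measured 0.92, 0.02, 1.38, and 0.28 log2 units with NanoISD and -1.16, 0.25, 0.10, and -0.24 with D-PDB. NanoISD tumor 2 lay inside the D-PDB range, and the other 3 lay above it. The *Ifnb1* difference was 0.91 log2 units (95% confidence interval 0.06 to 1.77) and did not pass the adjusted test (limma adjusted p = 0.0952), although it passed without NanoISD tumor 2. The D-PDB mean of *Ifnb1* differed from the PBS mean by -0.26 log2 units, which did not pass the test (limma adjusted p = 0.831). Because the members of the interferon-alpha family are close copies of each other, a probe for *Ifna1* may also count its relatives.

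The ligands of CXCR3, the receptor of activated T cells and NK cells, are induced by type I and type II interferons. *Cxcl10*, which had the largest difference of the panel, measured 3.59, 2.07, 5.64, and 4.67 log2 units in the NanoISD-treated tumors and 0.49, 0.79, 0.47, and 0.40 in the D-PDB-treated tumors. The D-PDB-treated tumors lay close together, inside or just above the PBS range of -0.34 to 0.72, and the lowest NanoISD-treated tumor was above all of them. The difference was 3.46 log2 units, or 11-fold with a 95% confidence interval of 4.45- to 27.0-fold (SE 0.60, limma adjusted p = 0.00252). *Cxcl11* measured 1.33, 0.22, 3.45, and 2.34 log2 units with NanoISD and -0.58, -0.05, -0.33, and -0.04 with D-PDB. All D-PDB-treated tumors were below the PBS mean and all NanoISD-treated tumors above it, although NanoISD tumor 2 was close to it. Its difference was 2.09 log2 units (SE 0.54, limma adjusted p = 0.0157). *Cxcl9*, which is known for its dependence on type II interferon, measured 0.55, -0.50, 2.29, and 2.21 log2 units with NanoISD and 1.50, 1.77, -3.35, and 0.47 with D-PDB. The groups overlapped, and D-PDB tumor 3 held the lowest value of all genes and tumors. The difference was 1.04 log2 units with an interval of -1.07 to 3.15 (limma adjusted p = 0.389). Over all 3 ligands, 2 passed the test (25.6% over the panel) and the median difference was 2.09 log2 units, beside 1.01 for the panel.

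Among the inflammatory and regulatory cytokines, 3 of the 4 measured genes were higher with NanoISD, beside 25.6% of the panel, with a median difference of 1.39 log2 units beside 1.01. The call of *Tnfa* was the least stable of these. *Il6*, a cytokine of the NF-kB arm that drives the acute phase response, measured 4.42, 2.30, 4.73, and 3.28 log2 units in the NanoISD-treated tumors and 0.49, -0.20, 0.88, and 1.22 in the D-PDB-treated tumors. The groups did not overlap, and the distance between the lowest NanoISD-treated and the highest D-PDB-treated tumor exceeded 1 log2 unit, while 3 of the 4 D-PDB-treated tumors were inside the PBS range of -1 to 1. The difference was 3.09 log2 units, or 8.49-fold with an interval of 3.61- to 19.9-fold (SE 0.57, limma adjusted p = 0.00252). *Il10*, an anti-inflammatory cytokine made by macrophages and T cells, measured 3.24, 1.03, 2.34, and 1.66 log2 units with NanoISD and -0.35, 0.86, -0.24, and 0.95 with D-PDB. The groups were apart, but NanoISD tumor 2 was just above D-PDB tumors 2 and 4. Its difference was 1.76 log2 units (SE 0.48, limma adjusted p = 0.0157).

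*Tnfa*, an NF-kB target that itself activates NF-kB, measured 0.99, -0.10, 1.04, and 0.21 log2 units with NanoISD and -0.74, -0.23, -0.64, and -0.30 with D-PDB. The groups did not overlap, all 4 D-PDB-treated tumors were below the PBS mean, and NanoISD tumor 2 was too. The difference was 1.01 log2 units (SE 0.34, limma adjusted p = 0.047). *Tnfa* was the 1 gene of the 11 that did not pass against PBS. Its NanoISD mean was 0.54 log2 units above the PBS mean (limma adjusted p = 0.188), and its D-PDB mean was below it, with a difference of -0.48 log2 units. The call was lost in 14 of the 23 alternatives tried, among them the omission of any 1 of 9 of the 12 tumors, and was kept when D-PDB tumor 4, NanoISD tumor 2, or NanoISD tumor 4 was omitted. *Tgfb1*, a growth factor that restrains T cells, differed by -0.01 log2 units with an interval of -0.80 to 0.77.

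The chemokines *Ccl3* and *Ccl4*, which macrophages make early in inflammation, were also higher with NanoISD. *Ccl4*, or MIP-1 beta, measured 3.77, 0.85, 3.34, and 2.14 log2 units in the NanoISD-treated tumors and 0.03, 0.65, -0.53, and 0.46 in the D-PDB-treated tumors. The groups were apart, with NanoISD tumor 2 closest to the D-PDB-treated tumors. The difference was 2.37 log2 units, or 5.18-fold (SE 0.56, limma adjusted p = 0.0132). *Ccl3*, or MIP-1 alpha, measured 3.16, 0.96, 2.42, and 1.63 log2 units with NanoISD and 0.35, 0.41, -0.52, and 0.95 with D-PDB. NanoISD tumor 2 and D-PDB tumor 4 were nearly equal, so that the absence of overlap rested on 0.01 log2 units. The difference was 1.75 log2 units (SE 0.46, limma adjusted p = 0.0157).

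The colony-stimulating factors support the growth and survival of myeloid cells, and 2 of the 3 measured were higher with NanoISD (25.6% over the panel), both with overlapping tumors. *Csf3*, or G-CSF, which drives neutrophil production, measured 2.40, 1.15, 2.37, and 1.70 log2 units in the NanoISD-treated tumors and -0.07, -0.07, 0.32, and 1.46 in the D-PDB-treated tumors. D-PDB tumor 4 was above NanoISD tumor 2, and 5 of the 12 tumors, 2 of them D-PDB-treated and 3 PBS-treated, shared the lowest value of -0.07. The levels in those 5 tumors could not be ordered, and the D-PDB mean depends in part on that shared value. The difference was 1.50 log2 units (SE 0.41, limma adjusted p = 0.0157). *Csf1*, or M-CSF, the main growth factor of macrophages, measured 2.39, 0.08, 2.51, and 2.27 log2 units with NanoISD and 0.29, 0.64, -0.01, and 0.67 with D-PDB. NanoISD tumors 1, 3, and 4 lay close together and far above the D-PDB-treated tumors, whereas NanoISD tumor 2 was among the latter. The *Csf1* difference was 1.42 log2 units (SE 0.48, limma adjusted p = 0.047), and the call was lost in 16 of the 23 alternatives, although not without NanoISD tumor 2, where the difference was 1.99. *Csf2*, or GM-CSF, differed by 1.00 log2 units with an interval of -0.09 to 2.08.

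Ligands of CXCR2, the main chemokine receptor of neutrophils, gave 1 of 6 genes past the threshold (25.6% over the panel) and a median difference of 1.45 log2 units, and the members differed widely. *Cxcl1*, or KC, measured 4.80, 1.07, 2.42, and 0.92 log2 units in the NanoISD-treated tumors and -0.22, -0.04, 0.17, and 1.17 in the D-PDB-treated tumors. NanoISD tumors 1 and 3 were above every D-PDB-treated tumor, whereas NanoISD tumors 2 and 4 were below D-PDB tumor 4. The difference was 2.03 log2 units (SE 0.70, limma adjusted p = 0.047). This call was lost in 16 of the 23 alternatives, and the difference was 1.20 log2 units without NanoISD tumor 1. *Cxcl5*, or LIX, measured 8.08, 4.41, 5.39, and 4.02 log2 units with NanoISD and 1.91, 2.25, 2.09, and 4.72 with D-PDB. The value of 8.08 was the highest of all genes and tumors, and D-PDB tumor 4 was inside the NanoISD range, far above the other 3. *Cxcl5* differed by 2.73 log2 units (95% confidence interval 0.63 to 4.84) and just missed the threshold (limma adjusted p = 0.0516).

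*Cxcl2*, or MIP-2, measured 4.01, 2.46, 2.10, and 1.91 log2 units with NanoISD and -0.18, 0.06, 0.70, and 2.24 with D-PDB. Here too D-PDB tumor 4 was inside the NanoISD range. The difference was 1.92 log2 units (95% confidence interval 0.41 to 3.42; limma adjusted p = 0.0516). D-PDB tumor 4 was the highest D-PDB-treated tumor for all 6 genes listed as CXCR2 ligands, although the receptor of mouse *Cxcl15* was not checked. Without D-PDB tumor 4, *Cxcl5* and *Cxcl2* passed the test. The other 3 ligands, *Cxcl3*, *Cxcl15*, and *Ppbp*, differed by 0.29 to 0.99 log2 units and did not pass against either group.

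**Figure D2:**
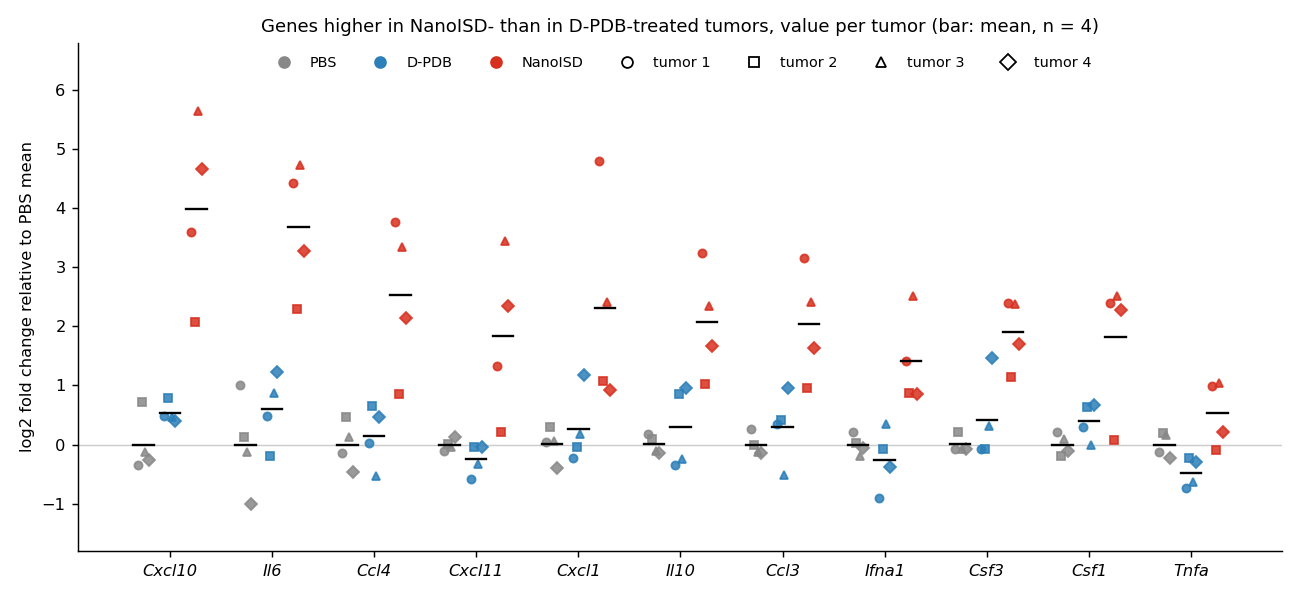
Log2 fold change relative to the PBS mean (vertical axis) in each tumor for the 11 genes that were higher with NanoISD than with D-PDB (horizontal axis), with symbols for the tumor number and a bar for the mean of 4 tumors. The D-PDB values stay at or below 1.46 and near the PBS values, and NanoISD tumor 2 (squares) is the lowest NanoISD-treated tumor for 9 of the 11 genes.

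Against PBS, 22 of the 43 genes were higher with NanoISD (51.2%). These 22 are 10 of the 11 genes above and 12 further genes that did not pass against D-PDB, while 20 genes passed against neither. The comparisons share the NanoISD-treated tumors, or the D-PDB-treated tumors, and are therefore given side by side. For the 10 genes that passed both, the D-PDB mean differed from the PBS mean by -0.26 to 0.60 log2 units (median 0.30), and the NanoISD mean exceeded the D-PDB mean by 1.42 to 3.46 (median 1.90). For the 12 genes that passed only against PBS, the D-PDB mean exceeded the PBS mean by 0.13 to 2.74 log2 units (median 0.72), and the NanoISD mean exceeded the D-PDB mean by 0.50 to 2.73 (median 1.43). The lower D-PDB median of the 10 genes is partly built in, because the test against D-PDB sorted the genes and favors low D-PDB values. Whether the carrier acted differently on these sets was not tested. D-PDB against PBS gave 0 genes past the adjusted threshold with limma and 1, *Cxcl5*, at an unadjusted p under 0.05. A missed threshold does not show that the DNA made no difference to these 12 genes: their means were all higher with NanoISD than with D-PDB, the unadjusted 95% confidence interval lay above 0 for 7, and it reached 1 log2 unit or more for all 12.

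**Figure D3:**
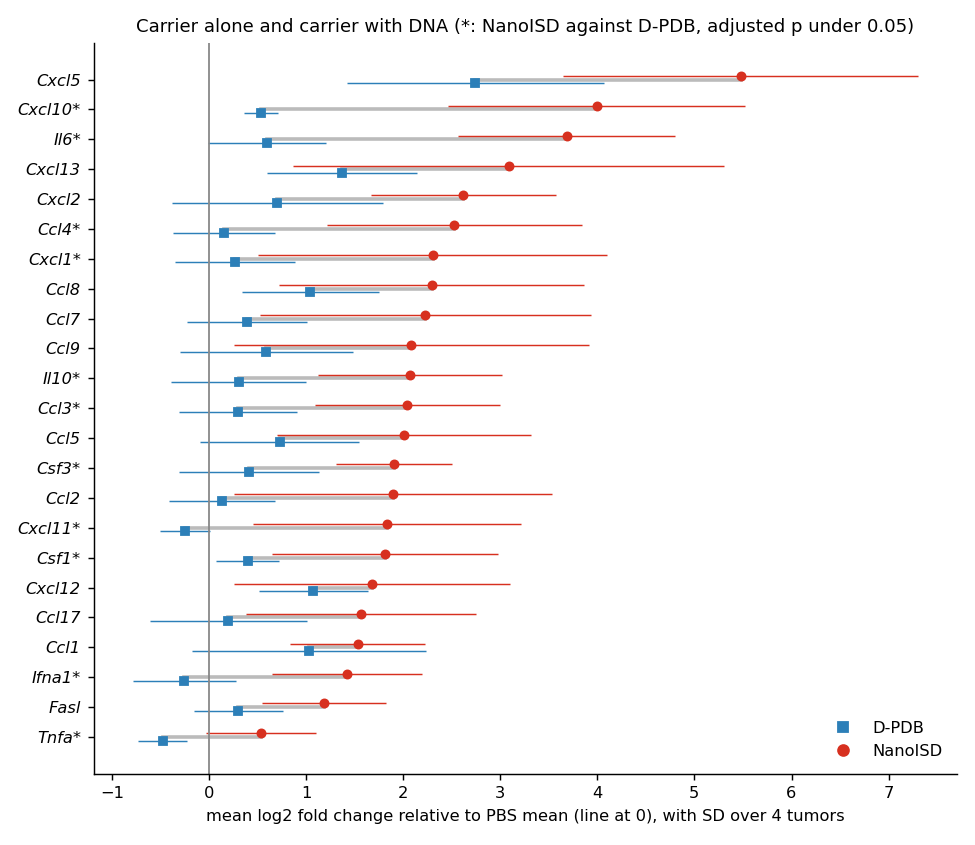
Mean log2 fold change relative to PBS (horizontal axis, SD over 4 tumors as lines) with D-PDB (squares) and NanoISD (circles) for the 23 genes (vertical axis) that were higher with NanoISD than with PBS or than with D-PDB, an asterisk marking the latter. D-PDB squares lie near 0 for *Ccl2* (0.13), *Ccl4* (0.15), and *Ccl17* (0.20), at 0.54 for *Cxcl10*, and further above 0 for *Cxcl5* (2.74), *Cxcl13* (1.37), *Cxcl12* (1.08), *Ccl8* (1.05), and *Ccl1* (1.03).

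All 3 measured genes listed here as ligands of CCR2, the receptor by which monocytes leave the blood, passed only against PBS. Over the panel, 12 of the 43 genes passed only against PBS, and 51.2% passed against PBS in all. The list follows textbook receptor assignments, and the receptor of mouse *Ccl8* was not checked. *Ccl2*, or MCP-1, measured 4.08, 0.20, 2.03, and 1.28 log2 units with NanoISD and 0.04, 0.08, -0.46, and 0.86 with D-PDB. NanoISD tumor 2 was inside the D-PDB range, and the other 3 were above it. The difference was 1.77 log2 units (95% confidence interval 0.37 to 3.16; limma adjusted p = 0.0516), while the D-PDB mean was only 0.13 above the PBS mean. *Ccl7*, or MCP-3, measured 4.44, 0.37, 2.47, and 1.64 log2 units with NanoISD and 0.26, 0.54, -0.37, and 1.12 with D-PDB. The order of the tumors was the same as for *Ccl2* in both groups. It differed by 1.84 log2 units (interval 0.37 to 3.31; limma adjusted p = 0.0516), beside 0.39 for D-PDB over PBS. *Ccl8*, or MCP-2, measured 4.47, 0.75, 1.77, and 2.19 log2 units with NanoISD and 1.21, 1.24, 0.04, and 1.69 with D-PDB. Here 3 of the 4 D-PDB-treated tumors were above NanoISD tumor 2. The *Ccl8* difference of 1.25 log2 units (interval -0.20 to 2.70) stood beside one of 1.05 for D-PDB over PBS. When NanoISD tumor 1 was omitted, NanoISD exceeded D-PDB by 1.04 log2 units for *Ccl2*, 1.11 for *Ccl7*, and 0.53 for *Ccl8*.

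*Ccl5*, or RANTES, which is driven by both arms and attracts T cells, measured 2.71, 0.14, 3.09, and 2.10 log2 units with NanoISD and 1.16, 1.32, -0.47, and 0.91 with D-PDB. NanoISD tumor 2 lay below 3 of the D-PDB-treated tumors, and the other 3 NanoISD-treated tumors lay above all of them. The difference was 1.28 log2 units (interval 0.02 to 2.54; limma adjusted p = 0.101), beside 0.73 for D-PDB over PBS, and it passed without NanoISD tumor 2. *Ccl9*, a myeloid chemokine that acts on CCR1, measured 4.76, 0.67, 1.59, and 1.32 log2 units with NanoISD and 0.25, 0.65, -0.33, and 1.78 with D-PDB. Apart from NanoISD tumor 1, no NanoISD-treated tumor exceeded D-PDB tumor 4. Its difference was 1.50 log2 units (interval -0.19 to 3.19), beside 0.59 for D-PDB over PBS, and it was 0.61 log2 units without NanoISD tumor 1.

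Of the 3 genes listed as ligands of CCR4 and CCR8, 0 passed against D-PDB (25.6% over the panel) and 2 against PBS (51.2%). These receptors are found on regulatory T cells and type 2 helper T cells. *Ccl17*, a CCR4 ligand, measured 3.23, 0.44, 1.22, and 1.38 log2 units with NanoISD and -0.57, -0.20, 0.28, and 1.29 with D-PDB. D-PDB tumor 4 was above NanoISD tumors 2 and 3. The difference was 1.37 log2 units (interval 0.17 to 2.57; limma adjusted p = 0.0764), beside 0.20 for D-PDB over PBS, and it was 0.81 log2 units without NanoISD tumor 1. *Ccl1*, a CCR8 ligand, measured 2.32, 0.63, 1.55, and 1.62 log2 units with NanoISD and 1.79, 0.89, -0.61, and 2.06 with D-PDB. Only NanoISD tumor 1 was above D-PDB tumor 4. The *Ccl1* difference of 0.50 log2 units (interval -0.72 to 1.72) stood beside one of 1.03 for D-PDB over PBS, and it was -0.05 without D-PDB tumor 3 and 0.84 without D-PDB tumor 4. *Ccl22*, the other CCR4 ligand, differed by 1.18 log2 units (interval 0.04 to 2.31; limma adjusted p = 0.1).

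Of the 6 other chemokines, 0 passed against D-PDB (25.6% over the panel) and 2 passed against PBS (51.2%). *Cxcl13*, which guides B cells through CXCR5, measured 6.31, 1.24, 2.45, and 2.34 log2 units with NanoISD and 1.05, 1.87, 0.44, and 2.12 with D-PDB. NanoISD tumor 1 was far above all others, and NanoISD tumor 2 was below D-PDB tumors 2 and 4. The difference was 1.72 log2 units (interval -0.34 to 3.77; limma adjusted p = 0.169), beside 1.37 for D-PDB over PBS, and it was 0.64 log2 units without NanoISD tumor 1. *Cxcl12*, the CXCR4 ligand made by stromal cells, measured 3.80, 1.01, 0.75, and 1.16 log2 units with NanoISD and 1.07, 1.04, 0.41, and 1.78 with D-PDB. Apart from NanoISD tumor 1, the groups covered nearly the same range. The *Cxcl12* difference of 0.61 log2 units (interval -0.69 to 1.90) stood beside one of 1.08 for D-PDB over PBS, and it was -0.10 without NanoISD tumor 1. The remaining 4, *Pf4*, *Xcl1*, *Cxcl14*, and *Cxcl16*, differed by 0.15 to 0.69 log2 units.

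*Fasl*, the ligand with which cytotoxic lymphocytes kill through the receptor Fas, measured 2.09, 0.65, 0.82, and 1.18 log2 units with NanoISD and 0.45, 0.42, -0.36, and 0.70 with D-PDB. NanoISD tumor 2 was just below D-PDB tumor 4, and the other 3 were above it. The difference was 0.88 log2 units (interval 0.05 to 1.72; limma adjusted p = 0.0952), beside 0.31 for D-PDB over PBS, and it was 0.58 log2 units without NanoISD tumor 1. *Fasl* stood with *Il7*, *Kitl*, and *Lta* in a list of other cytokines, of which 0 of 4 passed against D-PDB (25.6% over the panel). Their median difference was 0.60 log2 units, beside 1.01 for the panel.

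The smallest median differences were those of the T cell cytokines *Il2* and *Il3* (0.31 log2 units) and of the mucosal and skin chemokines *Ccl20*, *Ccl28*, and *Cxcl17* (0.49 log2 units). Of these 5 genes, 0 passed against D-PDB (25.6% over the panel) and 0 against PBS (51.2%). *Ccl20* shared its lowest value in 8 of the 12 tumors and *Cxcl17* in 10, so the levels in those tumors could not be ordered. No ligand of CCR3 or CCR7 from the lists was measured. Grouped by signaling arm, 3 of 7 genes of the IRF and interferon arm and 6 of 14 genes of the NF-kB arm were higher with NanoISD than with D-PDB, beside 11 of 43 (25.6%) over the panel, with median differences of 1.28 and 1.76 log2 units beside 1.01. *Ccl5* stands in both arms, and whether the arms differed was not tested. Free of overlap were 3 of the 7 and 4 of the 14 genes, beside 8 of 43 (18.6%) over the panel.

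**Figure D4:**
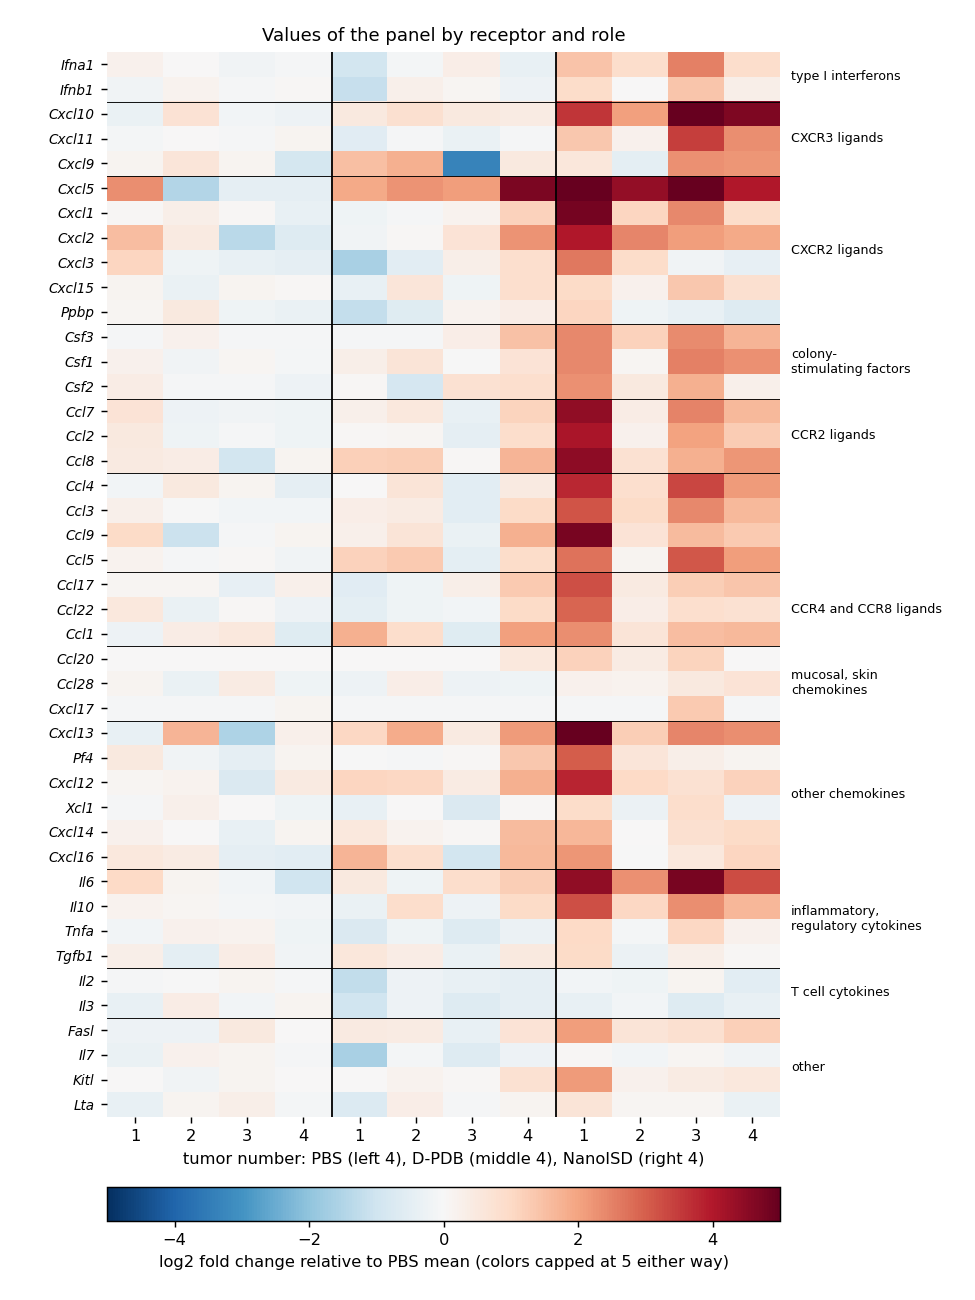
Log2 fold change relative to the PBS mean (color, capped at 5 in either direction) of the 43 genes (rows, grouped by receptor or role, with 1 group left unnamed) in the 12 tumors (columns, 4 per treatment). Red lies above the PBS mean and blue below it. NanoISD tumor 1 is red across most lists, and NanoISD tumor 3 has the highest NanoISD values of the CXCR3 ligands. D-PDB tumor 4 has the highest D-PDB values of the CXCR2 and CCR2 ligand lists.

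The NanoISD-treated tumors did not respond alike. NanoISD tumors 1, 2, 3, and 4 exceeded the highest D-PDB value for 39, 12, 28, and 20 of the 43 genes, and for 11, 8, 11, and 10 of the 11 genes that passed. For each of the 43 genes, at least 1 NanoISD-treated tumor was above all 4 D-PDB-treated tumors. NanoISD tumor 1 was the highest of its group for 28 genes and NanoISD tumor 3 for 13. NanoISD tumor 3 was highest for 6 of the 7 genes of the IRF and interferon arm, including all 3 CXCR3 ligands and both interferons. NanoISD tumor 1 was highest for 11 of the 14 NF-kB arm genes and for all 3 genes listed as CCR2 ligands. This split was noticed after the values were seen and was not tested. NanoISD tumor 2 was the lowest of its group for 28 genes, and for 9 of the 11 that passed. Among the D-PDB-treated tumors, D-PDB tumor 4 was the highest for 28 genes, among them all listed CXCR2 and CCR2 ligands and all colony-stimulating factors.

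**Figure D5:**
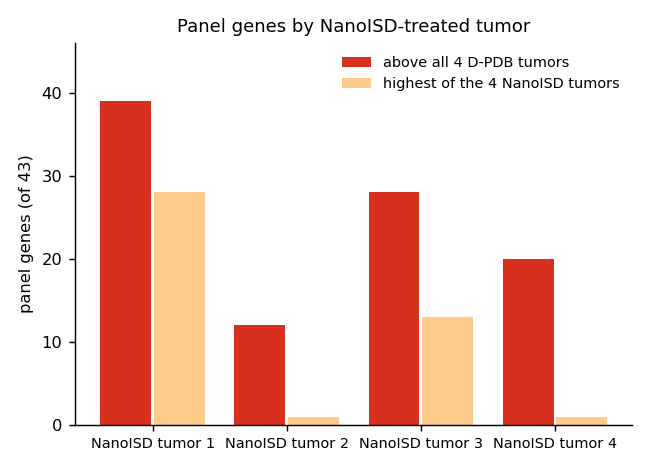
Number of the 43 panel genes (vertical axis, starting at 0) for which each NanoISD-treated tumor (horizontal axis) was above all 4 D-PDB-treated tumors and for which it was the highest NanoISD-treated tumor. The first count is 39, 12, 28, and 20 and the second is 28, 1, 13, and 1 for tumors 1 to 4.

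The RNA came from whole tumors, so a higher value from more cells of a type and one from more RNA per cell cannot be told apart. The cell types in the tumors could not be checked, because the panel holds 2 (*Pf4* and *Ppbp*, both of platelets) of the 22 markers listed for melanocytes, immune cells, and stroma. Neither passed the test between NanoISD and D-PDB. Of the house-keeping genes, *Rpl19* was higher with NanoISD than with D-PDB by 0.20 log2 units, without overlap (exact permutation test, p = 0.0286), and *Gapdh* was lower, with a difference of -0.18 (exact permutation test, p = 0.229), while the other 3 differed by -0.06 to 0.02. Without *Gapdh* in the scale, 8 panel genes passed, and without *Hdac3* or without *Rpl19*, 15 passed. The labels name no hybridization batch, and the counts behind the values were not used here, so the depth of each tumor is unknown and the number of tumors limits the precision.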

How the data were processed

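NanoString nCounter barcodes were counted by the authors on 12 tumors and processed in nSolver, whose version and background threshold are not given in the sources used here. The authors deposited log2 fold changes with 2 decimals, relative to the house-keeping genes and the PBS-treated tumors, and these were used without a pseudocount, filter, or further scaling. 0 columns lacked a sample. Tumors were grouped by their titles, and the series describes them as biological replicates.

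Differences were tested with limma 3.58.1 (R 4.3.3; lmFit, eBayes) in 1 fit of all 12 tumors, and p-values were adjusted over 43 genes by the Benjamini-Hochberg method at 0.05. The fit was tested on simulated data. Single genes were also compared by a two-sided exact permutation test over 70 splits. Other calculations used scipy 1.17.1, numpy 2.4.6, and pandas 2.3.3 in Python 3.11.15, and plots used matplotlib 3.10.9.

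The text names, with each tumor's value, every gene past the threshold against D-PDB or against PBS, and *Ifna1*, *Ifnb1*, *Tnfa*, and *Cxcl9*. Other genes were given by list, and those singled out were chosen after their values were seen. The comparison and the lists by receptor, role, and signaling arm were chosen from textbook knowledge with earlier results of these data known, and 1 list is not reported here. Promoters were RefSeq sequences of GRCm38.p6. Among the 23 alternatives were tumors left out in turn, only 2 treatments in the fit, and the replicate number as a block. The others were a house-keeping gene left out of the scale, array weights, a robust fit, values without log, and the exact test without adjustment.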

Additional observations from a re-analysis of the deposited data

Results flagged for a closer look

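In groups of 4 tumors, a tumor was singled out where its gap to the nearest other tumor was a larger part of the range of the group than Dixon's limit for 4 values allows. Over the 43 genes in NanoISD- and D-PDB-treated tumors, 83 groups had no 3 tumors at the same value, and 6 of them held such a tumor, where chance alone gives about 1 in 20 groups, i.e. 4.15. NanoISD tumor 1 was far above the other NanoISD-treated tumors for *Cxcl12* (gap over range 0.866) and *Kitl* (0.848), and NanoISD tumor 2 was far below them for *Csf1* (0.901). D-PDB tumor 4 was far above the other D-PDB-treated tumors for *Cxcl5* (0.879) and *Pf4* (0.942), and D-PDB tumor 2 was far above them for *Ccl28* (0.933). The limit has no meaning where 3 tumors share the lowest value, as they did beside D-PDB tumor 4 for *Ccl20* and beside NanoISD tumor 3 for *Cxcl17*, where the ratio is 1 by construction. Of the 6 genes, *Csf1* was the 1 that passed the test against D-PDB. *Cxcl5* passed it without D-PDB tumor 4.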

How the results depend on the processing

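The count of 11 genes higher with NanoISD than with D-PDB fell to 2 with only the 2 compared treatments in the fit (15 at an unadjusted p under 0.05) and to 0 with values without log (13 at an unadjusted p under 0.05), and leaving out single tumors gave 5 to 20. It was 8 with the replicate number as a block, 10 with array weights, and 9 with the robust fit. With a house-keeping gene left out of the scale it was 8 to 15. The exact permutation test gave 8 at an unadjusted p under 0.05, which is not the adjusted threshold of the fits. The count of genes lower with NanoISD was 0 in all of these limma fits and by the exact test. The 8 genes without overlap became 8 to 19 without single tumors, and the 22 genes higher than with PBS became 16 to 26, or 0 with values without log (16 at an unadjusted p under 0.05). *Cxcl10* and *Il6* lost their calls in 1 of the 23 alternatives, values without log, *Ccl4* and *Ifna1* in 2, *Ccl3* and *Cxcl11* in 3, *Il10* in 4, and *Csf3* in 6, and the cause was not tested. 10 genes that did not pass did so under at least 1 alternative. Only genes that did not pass changed sign. Without single tumors, the difference was -0.05 to 0.84 for *Ccl1*, -0.10 to 0.92 for *Cxcl12*, -0.43 to 0.48 for *Cxcl16*, -0.11 to 1.60 for *Cxcl9*, -0.019 to 0.34 for *Lta*, -0.087 to 0.51 for *Ppbp*, and -0.24 to 0.17 for *Tgfb1*. *Lta* was -0.11 with array weights, and *Tgfb1* was 0.036 without *Rpl19* in the scale and 0.017 without log. Correlations over genes showed no pairing of NanoISD- with D-PDB-treated tumors by replicate number. The labels do not say whether tumors of the same number were handled together. NanoISD- and D-PDB-treated tumors of the same number correlated over genes at -0.52 to 0.00 in their deviations from the group means. 0 of 4 NanoISD-treated tumors correlated best with the D-PDB-treated tumor of its own number. With the PBS-treated tumor of the same number, NanoISD tumors 1 to 4 correlated at 0.47, -0.14, 0.41, and -0.03. For NanoISD tumors 1 and 3 this was the highest correlation with any PBS-treated tumor, and for NanoISD tumors 2 and 4 it was not. The 8 genes that passed with the block were all among the 11 (without *Csf1*, *Cxcl1*, and *Tnfa*). The number of tumors, 4 per treatment, limits the precision, and the depth is unknown.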
